A study of Homo sapiens with 6 samples.

Results

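The genes described here are GALT and 5 genes that act beside it, GALK1, GALK2, GALM, UGP2 and PGM1. They are 6 of 28395 genes in a count table of TC28a2, a line of immortalised human chondrocytes. GALT was chosen for its small unadjusted p in the comparison described here. The other 5 were chosen by name, as parts of the galactose pathway or enzymes next to it. Counts in 3 libraries from cells given a control vector were compared with counts in 3 libraries from cells given a ZEB1 overexpression vector, all taken 48 h after transfection. The share of cells that took up a vector is not given. ZEB1 encodes a DNA-binding protein best known for repressing epithelial genes, and the study concerns senescent cells in osteoarthritic cartilage and meniscus. All 6 libraries are of 1 cell line. The labels name no separate cultures behind the libraries of a vector, and p-values therefore cover only the spread among these libraries, which may be technical.

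The Leloir pathway turns galactose into sugars that a cell can burn or build with. GALM interconverts the anomers of free galactose, GALK1 phosphorylates it, and GALT exchanges the resulting galactose 1-phosphate with UDP-glucose to give UDP-galactose and glucose 1-phosphate. UGP2 makes UDP-glucose from glucose 1-phosphate, and PGM1 links glucose 1-phosphate to glucose 6-phosphate. GALK2 is a relative of GALK1 that phosphorylates N-acetylgalactosamine. Loss of GALT activity causes classic galactosemia. In cartilage, UDP-galactose is a building block of the linker that joins glycosaminoglycans to proteoglycan cores and of keratan sulfate.

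With the ZEB1 vector, GALT was almost absent from the counts, while the other 5 members had values that overlapped the controls. IL11RA, the gene that starts 1150 bases after GALT ends, was also absent from all 3 ZEB1 libraries. GALM, GALK1, UGP2 and GALK2 had overlapping values under both vectors. PGM1 was lower in ZEB1 replicates 1 and 2 and within the control range in replicate 3.

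Total counts were 5359200 to 5878640 in the controls, against 1277632, 1621270 and 3316228 in ZEB1 replicates 1, 2 and 3, so a count of 1 weighs more in the ZEB1 libraries. ZEB1 itself had 114 to 203 counts in the controls, against 13805, 21844 and 23143 counts in ZEB1 replicates 1, 2 and 3; each library matched its label. Values below are in CPM, counts divided by the TMM-scaled library size. Differences are log2 fold changes from edgeR's quasi-likelihood test, ZEB1 vector minus control vector, with p-values adjusted by Benjamini-Hochberg over all 11329 genes that had enough counts to be tested. ZEB1 was the only gene of the table to pass an adjusted p of 0.05 in that test, which is 0.00883% of the genes tested. The median log2 fold change of all tested genes was -0.01, and it moved by -0.13 with library size as the only scaling. Of 16 chondrocyte markers SOX9 had enough counts to be tested (54.0 to 82.5 CPM in the controls), COL2A1 and ACAN had 11 and 13 counts in all, and COL9A1, CHAD and CNMD had none. Of the markers of other cell types, 4 of 8 leukocyte and 3 of 8 endothelial markers were tested. Their summed levels overlapped between the vectors. The leukocyte sums were 181 to 204 CPM in the controls and 180 to 257 CPM under the ZEB1 vector. The endothelial sums were 78.6 to 91.5 CPM and 64.6 to 102 CPM. In the controls the 16 chondrocyte markers summed to 56.4 to 88.4 CPM, below the leukocyte sums and overlapping the endothelial ones. SRGN alone, in the leukocyte list, had a control mean of 144 CPM. The defining T cell marker CD3E had no count. Among these markers SRGN and PECAM1 had an unadjusted p under 0.05 and were higher, as were 5.83% of all genes tested. Their log2 fold changes were 0.38 (SE 0.18, edgeR adjusted p = 0.520) and 2.04 (SE 0.87, edgeR adjusted p = 0.462). PECAM1 had 1.09 to 1.79 CPM in the controls against 3.54 to 7.68 CPM under the ZEB1 vector. Of the 4 tested leukocyte markers 1 was higher and 3 were lower, and of the 3 endothelial ones 2 were higher and 1 was lower.

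**Figure D1:**
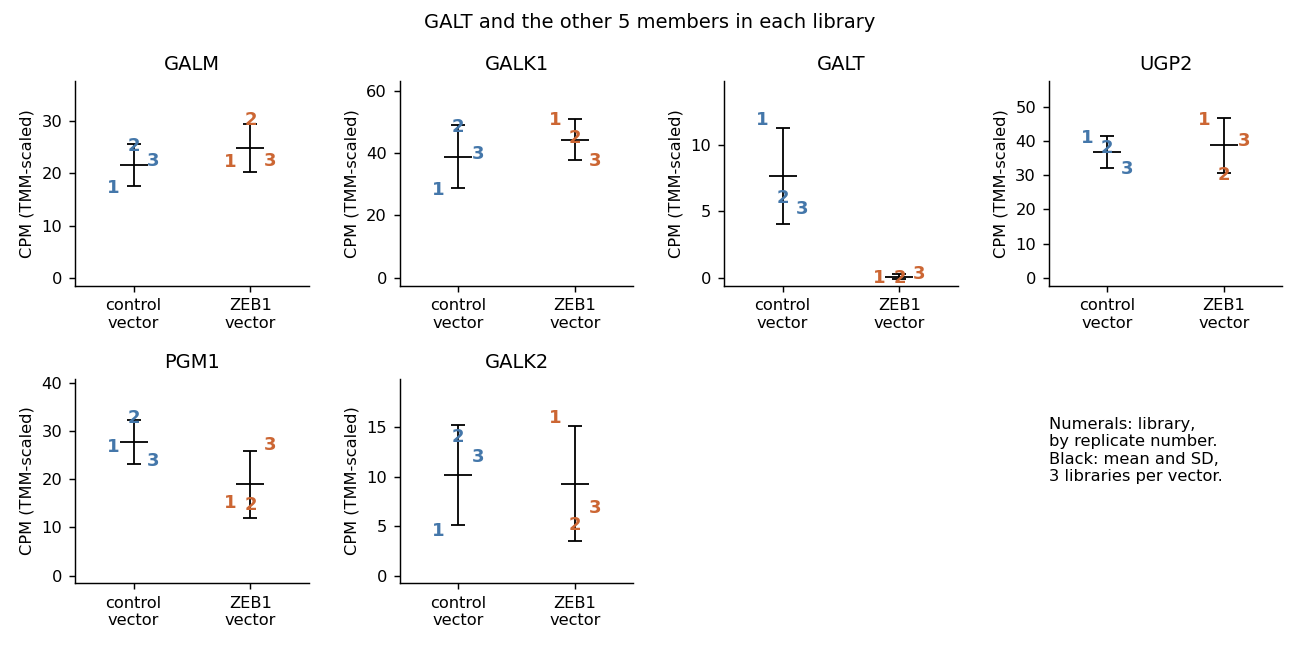
Level of each gene in CPM (TMM-scaled, linear axes) in the 3 control vector and 3 ZEB1 vector libraries. Numerals are libraries by replicate number and the black marks are the mean and SD of 3. GALT is at 0 to 0.297 CPM in the ZEB1 libraries against 5.20 to 11.8 CPM in the controls, and the other 5 genes overlap between the vectors.

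GALT (Entrez 2592, chromosome 9, 34646675 to 34651035, plus strand on GRCh38.p14) was counted 74, 33 and 32 times in control replicates 1, 2 and 3, or 11.8, 5.99 and 5.20 CPM. With the ZEB1 vector it had no count in replicates 1 and 2 and 1 count in replicate 3, or 0.297 CPM. All 3 ZEB1 libraries lay below all 3 controls, and control replicate 1 stood above the other controls. At the pooled control rate the ZEB1 libraries would have held 10.4, 13.2 and 27.0 GALT counts. Summed counts per total were 50.6 times higher in the controls (95% interval 8.93 to 2013, exact, for counting error alone). Reads are taken as independent there and library-to-library spread is not in it. Without ZEB1 replicate 3, which held the single count, GALT was at least 7.87-fold lower against a floor of 3 counts over the remaining ZEB1 libraries. When every library was thinned to 1277632 counts, GALT kept 16, 8 and 10 counts in the controls, and the single ZEB1 count was not drawn. In these bulk libraries fewer cells with GALT RNA and less GALT RNA per cell cannot be told apart. GALT was chosen on this contrast, so these values are a description and carry no test. It had enough counts to be tested through the control libraries alone.

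The place of GALT among the other genes of the table is described next. GALT was chosen on this contrast, so its place near the extreme follows in part from that choice. The counts below are therefore no test of how unusual it is. Of 10524 genes with at least 60 counts summed over the controls, 12 (0.114%) had 0 or 1 count summed over the ZEB1 libraries. GALT had the most control counts of these 12. Among the 1532 genes with 100 to 200 control counts, the median was 47 ZEB1 counts, and 5% of genes had 21 or fewer. GALT was the 1 gene (0.0653%) of that range with 0 or 1. PTGER4, with 99 control counts and no ZEB1 count, lay just outside the range. The 5 genes with the lowest ratio of ZEB1 to control counts were PTGER4, CLCN2, ZGLP1, BMS1P2 and IL11RA, with 99, 79, 69, 63 and 62 control counts and no ZEB1 count. PTGER4 is a prostaglandin E2 receptor and CLCN2 a chloride channel. BMS1P2 is a pseudogene with close copies among which reads may have been split, so its value is uncertain. GALT came next, in place 6, with genes at 0 ordered by their control counts.

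**Figure D2:**
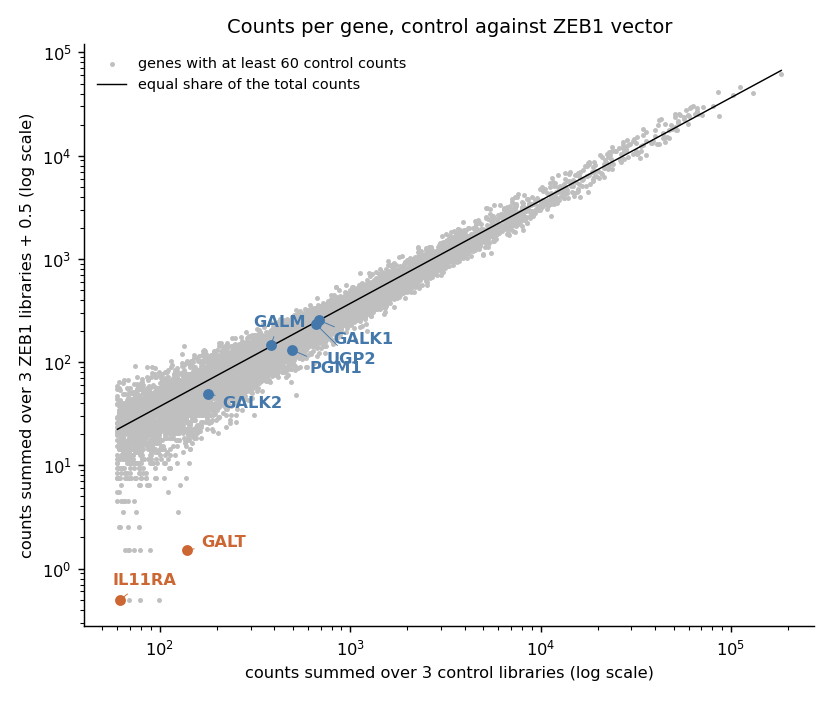
Counts summed over 3 control libraries (x axis, log scale) and over 3 ZEB1 libraries plus 0.5 (y axis, log scale) for genes with at least 60 control counts, with ZEB1 itself left out. The line marks an equal share of the totals. GALT, with 139 control counts and 1 ZEB1 count, and IL11RA, with 62 and 0, lie far below the line, and the 5 other members lie on or near it.

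The letters before the RefSeq start of GALT are shown because ZEB1 is known to bind E-boxes of the form CAGGTG, which reads CACCTG on the other strand. The 250 bases before each start site in RefSeq's GRCh38.p14 promoter table were searched on both strands for these letters, and no other motif was searched. The table held windows for the 6 members and IL11RA. The motif was in 6143 of all 35116 windows (17.5%). It occurred once in the single GALT window, 116 bases before the RefSeq start, once in 1 of 2 UGP2 windows, once in 1 of 3 PGM1 windows and in none of the windows of GALK1, GALK2, GALM and IL11RA. Printed below are the stretches of 3 windows that lie outside annotated exons of coding transcripts (GENCODE v29), 5′ to 3′ with the E-box letters in capitals. UGP2 is shown as a member with the same letters and overlapping levels, and IL11RA as the neighbour of GALT that had no count with the ZEB1 vector.
GALT, chr9:34646425-34646588, plus strand: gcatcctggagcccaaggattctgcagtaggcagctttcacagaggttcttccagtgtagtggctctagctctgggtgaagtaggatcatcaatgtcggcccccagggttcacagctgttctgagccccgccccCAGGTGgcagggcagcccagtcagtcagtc
UGP2, chr2:63840719-63840939, plus strand: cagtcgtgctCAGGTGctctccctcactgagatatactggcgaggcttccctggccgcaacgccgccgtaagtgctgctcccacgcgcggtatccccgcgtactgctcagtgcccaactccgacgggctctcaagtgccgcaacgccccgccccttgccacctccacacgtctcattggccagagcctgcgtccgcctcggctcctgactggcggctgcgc
IL11RA, chr9:34652058-34652161, plus strand: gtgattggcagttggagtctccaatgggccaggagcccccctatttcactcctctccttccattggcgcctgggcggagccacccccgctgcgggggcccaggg
The GALT stretch holds the letters CAGGTG after a run of C, the UGP2 stretch holds them near its 5′ end, and the IL11RA stretch holds no capitals. A match describes the letters and is not a binding site, and binding was not measured in this series.

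IL11RA, the receptor chain for interleukin 11 (chromosome 9, 34652185 to 34661902), had 18, 24 and 20 counts in control replicates 1, 2 and 3, or 2.88, 4.36 and 3.25 CPM, and none in the ZEB1 libraries. It was named by its place within 100 kb of GALT. At the control rate the ZEB1 libraries would have held 22.6 IL11RA counts in all. It was thus at least 7.52-fold lower against a floor of 3 counts over the 3 ZEB1 libraries. Its difference did not pass over all genes (edgeR adjusted p = 0.238, and 0.137 to 1.00 over the 11 other settings that gave one, limma-voom among them). DESeq2 gave it none. Like GALT, IL11RA had enough counts to be tested through the control libraries alone, so that test says little about it.

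Genes on the other side of GALT were well counted under both vectors. DCTN3, a dynactin subunit, had 87.0 ± 8.32 CPM in the controls against 100.4 ± 20.4 CPM under the ZEB1 vector (SD, n = 3), and RPP25L had 21.2 ± 12.6 and 24.9 ± 8.34 CPM (SD, n = 3). Both overlapped between the vectors. Of the 15 other RefSeq genes within 100 kb, 8 had a count in some library and 4 were tested, among them IL11RA, DCTN3 and RPP25L. The other 4 with counts were too low to compare. CNTFR, PHF24, CCL27 and SPATA31F1 had 20, 28, 8 and 1 control counts and 13, 7, 0 and 0 ZEB1 counts.

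The annotation of GALT and IL11RA overlaps in one catalogue and not in the other. In RefSeq the gene bodies are apart, while in GENCODE v29 IL11RA starts at 34650702, inside the last 334 bases of GALT. GENCODE also holds a joined gene, AL162231.3, from 34646645 to 34657113 on the same strand, which spans the RefSeq body of GALT and part of IL11RA. The start of GALT differs as well, at 34646675 in RefSeq and 34638133 in GENCODE v29, so the searched window before the RefSeq start lies inside the GENCODE gene. The annotation used for the counting is not given in the sources used here, so how reads in the shared bases were assigned is unknown, and its part in the low counts was not tested.

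**Figure D3:**
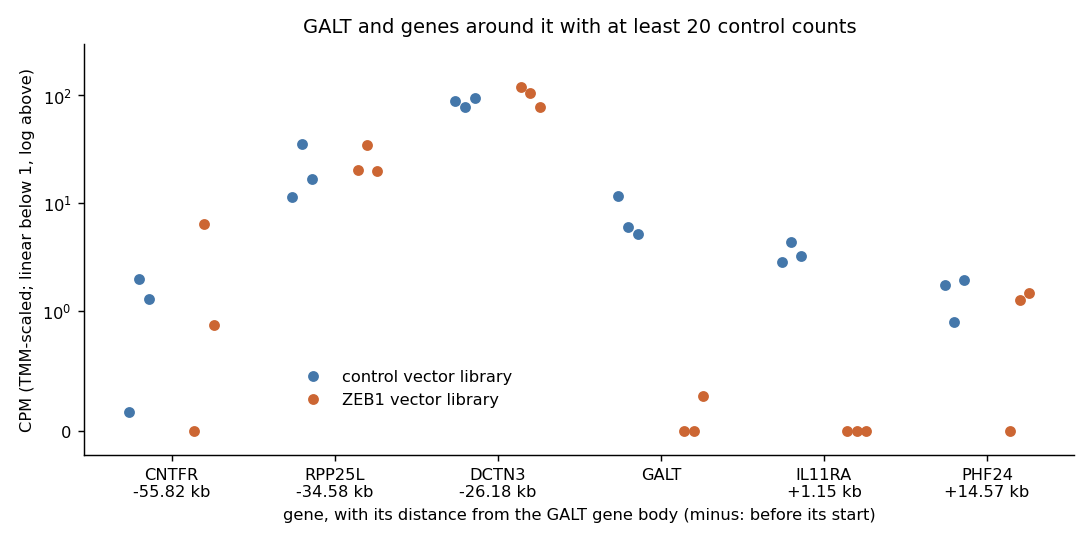
Level in CPM (TMM-scaled, linear below 1 and log above) of GALT and genes within 100 kb that had at least 20 control counts, in their order along the chromosome, 1 point per library. The ZEB1 libraries are at or near 0 for GALT and IL11RA, while DCTN3 and RPP25L are above 10 CPM in all 6 libraries.

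The enzymes that feed GALT had ZEB1 values that overlapped the controls. GALM, the galactose mutarotase (chromosome 2, 38666114 to 38734765), had 17.3, 25.2 and 22.3 CPM in control replicates 1, 2 and 3 and 22.1, 30.1 and 22.3 CPM in ZEB1 replicates 1, 2 and 3. Its log2 fold change was 0.20 (SE 0.32, 95% interval -0.43 to 0.82, edgeR adjusted p = 0.901). GALK1, the galactokinase (chromosome 17, 75751469 to 75765192), had 28.3, 48.5 and 39.8 CPM in the controls against 50.4, 44.8 and 37.4 CPM under the ZEB1 vector. The highest GALK1 value was that of ZEB1 replicate 1, and control replicate 1 was the lowest. Its log2 fold change was 0.17 (SE 0.26, 95% interval -0.34 to 0.68, edgeR adjusted p = 0.892), and -0.02 without control replicate 1. For both genes, and for those that follow, a difference inside the interval cannot be told from none with these libraries.

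UGP2, which makes UDP-glucose (chromosome 2, 63840969 to 63891560), had 40.7, 38.0 and 31.7 CPM in the controls against 46.0, 30.1 and 40.1 CPM under the ZEB1 vector. ZEB1 replicates 1 and 2 were its highest and lowest libraries. Its log2 fold change was 0.07 (SE 0.26, 95% interval -0.44 to 0.57, edgeR adjusted p = 0.961). The sign of the UGP2 difference turned with library size as the only scaling (-0.07), without control replicate 3 (-0.03) and without ZEB1 replicate 1 (-0.05).

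PGM1, phosphoglucomutase (chromosome 1, 63593411 to 63660245), was the member with the largest difference after GALT. It had 26.7, 32.7 and 23.7 CPM in the controls against 15.0, 14.7 and 27.0 CPM in ZEB1 replicates 1, 2 and 3. ZEB1 replicates 1 and 2 lay below all controls and replicate 3 among them. ZEB1 itself was at 12217, 13982 and 6867 CPM in these 3 libraries, and the total counts were lowest in replicates 1 and 2, so that for PGM1 the depth and the level of ZEB1 cannot be told apart. The log2 fold change was -0.50 (SE 0.33, 95% interval -1.14 to 0.15, edgeR adjusted p = 0.696), and -0.90 without ZEB1 replicate 3.

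GALK2 (chromosome 15, 49155774 to 49367740) was the least counted member after GALT and the most scattered. It had 4.47, 14.0 and 12.0 CPM in the controls against 15.9, 5.12 and 6.83 CPM under the ZEB1 vector. Control replicate 1, the highest library for GALT, was the lowest for GALK2, and ZEB1 replicate 1 was the highest. The log2 fold change was -0.19 (SE 0.56, 95% interval -1.29 to 0.90, edgeR adjusted p = 0.949), an interval that reaches about 2-fold either way. Its sign turned without control replicate 2 (0.12), without ZEB1 replicate 2 (0.06) and with all libraries thinned to the smallest total (0.04). GALK2 is overlapped in RefSeq by FAM227B and by a pseudogene, NDUFAF4P1, with 16 and 11 control counts, and GALK1 by ITGB4 with 19.

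Of the 5 members other than GALT, 0 passed the edgeR threshold, against 0.00883% of all genes tested. At an unadjusted p under 0.05 there were also 0 of 5, against 5.83% higher and 3.57% lower over all genes, and limma-voom called 0. DESeq2 gave none of the 6 members an adjusted p, because its own filter left them out. The ZEB1 and control libraries overlapped in all 5, and did not overlap in 15.1% of all genes tested. The 5 had a median log2 fold change of 0.07, with 3 higher and 2 lower.

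**Figure D4:**
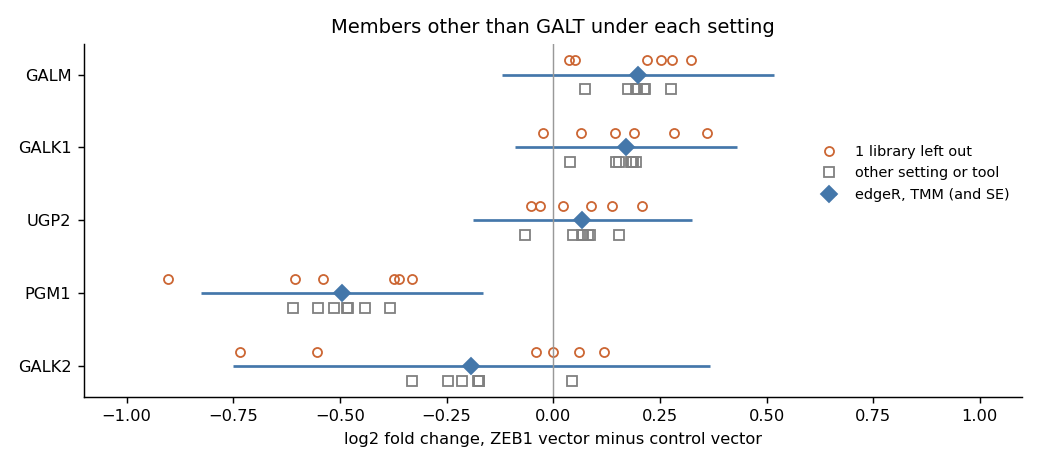
Log2 fold change (ZEB1 vector minus control vector, x axis) of the 5 members other than GALT. Diamonds are the edgeR values with their SE, circles leave out 1 library each, and squares are other settings and limma-voom. GALM and PGM1 stay on 1 side of 0, and GALK1, UGP2 and GALK2 cross it.

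Levels between genes were compared per length, as CPM per kilobase of exon in GENCODE v29. DRUG-seq is known as a method that counts the 3′ ends of transcripts, and for such counts this scale understates long transcripts. The order below therefore holds on this scale alone. In the controls GALK1 was the highest member at 19.3 ± 5.04 CPM per kilobase (SD, n = 3), followed by UGP2 at 12.7 ± 1.59. GALM at 8.69 ± 1.62 and PGM1 at 7.70 ± 1.27 overlapped. GALT at 4.16 ± 1.96 lay below PGM1, and GALK2 was the lowest at 1.73 ± 0.853. Apart from GALM and PGM1, the control ranges of neighbours in this order did not overlap, though the lowest GALK1 library (14.1) and the highest UGP2 library (14.0) were nearly equal. In CPM without the length GALT was instead the lowest member in the controls, at 7.67 ± 3.62 CPM against 10.2 ± 5.02 CPM for GALK2 (SD, n = 3), and the control libraries of these genes overlapped. With the ZEB1 vector GALT was at 0.0537 ± 0.0930 CPM per kilobase and GALK2 at 1.58 ± 0.987 (SD, n = 3).

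Genes whose levels over the 6 libraries were most like those of GALT were ranked by Pearson's r of log2 CPM among the other 11328 tested genes. Among the first 5 were CLCN2, COL14A1 and BMS1P2, in places 1, 3 and 5, with r of 0.993, 0.991 and 0.985. These r describe 6 libraries that fall into 2 groups of 3 and share their depth, so they carry no test. CLCN2 had 40, 20 and 19 counts in control replicates 1, 2 and 3 and none with the ZEB1 vector, and like GALT was highest in control replicate 1. COL14A1, a collagen that associates with fibrils, had 27, 18 and 23 counts against 0, 0 and 1. IL11RA ranked 29 with r of 0.960.

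Genes for the wider use of galactose and its nucleotide sugars were taken in 5 lists, and 0 of their members passed the edgeR threshold. Nucleotide sugar synthesis genes were tested in 27 of 29, with 15 higher and 12 lower and a median log2 fold change of 0.04. At an unadjusted p under 0.05 there were 1 lower and 0 higher of the 27, against 3.57% lower and 5.83% higher over all genes. The 1 was GFPT2, an enzyme that starts hexosamine synthesis. GFPT2 had 59.7, 63.9 and 56.5 CPM in the controls against 38.9, 30.1 and 53.1 CPM under the ZEB1 vector. Its log2 fold change was -0.53 (SE 0.24, edgeR adjusted p = 0.496). The sialic acid genes GNE and NANS did not overlap between the vectors either, in opposite directions, at 0.61 (SE 0.30) and -0.37 (SE 0.19). In this list 1 gene lay above and 4 below the controls in all ZEB1 libraries, against 6.96% and 8.17% of all genes.

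Galactosyltransferases and the supply of UDP-galactose to the Golgi were tested in 15 of 21 genes, with 6 higher and 9 lower. Their median log2 fold change was -0.13, against -0.01 over all tested genes. B4GALT1, which adds galactose to N-glycans, had 98.4 to 102 CPM in the controls against 45.1, 64.6 and 102 CPM in ZEB1 replicates 1, 2 and 3. B3GALT6, which builds the glycosaminoglycan linker, had 40.0 to 51.0 CPM in the controls against 16.8, 27.5 and 44.8 CPM under the ZEB1 vector. In both genes ZEB1 replicates 1 and 2 lay below the controls and replicate 3 overlapped them, as in PGM1. Their log2 fold changes were -0.46 (SE 0.23, edgeR adjusted p = 0.554) and -0.58 (SE 0.29, edgeR adjusted p = 0.571). B4GALT2 had -0.39 (SE 0.24).

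Enzymes that release galactose in the lysosome were tested in 6 of 10, with 4 higher and 2 lower and a median of 0.13. CTSA, which protects beta-galactosidase, had a log2 fold change of -0.25 (SE 0.18) and GLB1, the beta-galactosidase that serves as a senescence stain, had -0.19 (SE 0.21, edgeR adjusted p = 0.847). Glycogen genes were tested in 13 of 18, with 6 higher and 7 lower and a median of -0.07. PHKB, a phosphorylase kinase subunit, and PYGB, a glycogen phosphorylase, had -0.58 (SE 0.35) and -0.25 (SE 0.20).

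Hexose entry and polyol genes were tested in 17 of 25, with 8 higher and 9 lower and a median of -0.00044. AKR1B1, aldose reductase, which turns excess galactose into galactitol, had 177 to 185 CPM in the controls against 273, 173 and 182 CPM in ZEB1 replicates 1, 2 and 3. Only ZEB1 replicate 1 was above the controls, and the log2 fold change was 0.20 (SE 0.17, edgeR adjusted p = 0.784). G6PC3, a glucose 6-phosphatase, and HK2, a hexokinase, had -0.60 (SE 0.32) and -0.51 (SE 0.34). At an unadjusted p under 0.05 there were 0 in the last 4 lists, and limma-voom called 0 in all 5. DESeq2 gave an adjusted p to 2 galactosyl transfer and 2 hexose entry genes and called 0.

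**Figure D5:**
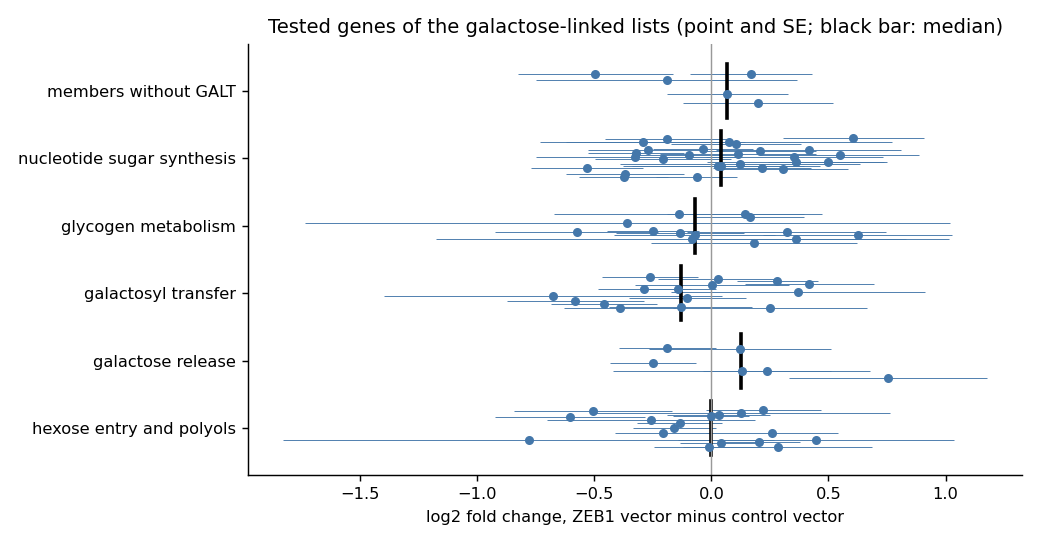
Log2 fold change with SE (ZEB1 vector minus control vector, x axis) of each tested gene in 6 groups, with black bars for medians. The 5 members other than GALT and the 5 lists centre near 0, with medians from -0.13 to 0.13. GALT itself is left out.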

How the data were processed

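The deposited table holds raw counts per Entrez gene ID for 6 libraries, made by DRUG-seq, a high-throughput form of RNA-seq, per the labels' protocols. HISAT2, Subread, featureCounts and GRCh38 are named by the submitters' processing notes. Their versions, the strand setting, the annotation and any collapsing of molecular identifiers are not given. RefSeq GRCh38.p14 symbols matched 27745 of 28395 IDs.

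The test was edgeR 4.0.16 under R 4.3.3 (quasi-likelihood, robust dispersions, TMM, filterByExpr, group as the only term). CPM used full library totals times TMM factors, and log2 CPM a prior count of 2. SEs, derived from fold changes and F statistics, and the normal 95% intervals built on them are approximate. A floor of 3 counts was 0.479 to 0.545 CPM in the controls, against 2.65, 1.92 and 0.890 CPM in ZEB1 replicates 1 to 3. The steps were tested on simulated data in which both vectors had the same spread. In the real libraries the spread beyond counting error (edgeR's common coefficient of variation) was 18.8% for the controls and 35.2% for the ZEB1 vector. The simulation does not cover that difference.

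The members and lists were chosen with earlier results of these data known. Named genes are the members, ZEB1, genes within 100 kb of GALT, the 5 genes most like GALT by each of 2 measures, and in each list the genes that passed or, where none did, the 3 with the smallest p. Marker lists are given by counts, sums and their genes with an unadjusted p under 0.05. Some genes that these rules name are not reported here. Alternatives were RLE factors, library size alone, no filter, a mean count of at least 20, thinning, a replicate block, DESeq2 1.42.0, limma-voom (limma 3.58.1) and leaving out each library.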

Additional observations from a re-analysis of the deposited data

How the results depend on the processing

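The count of genes past the edgeR threshold was 1, and it was 127 with no low-count filter, 205 with DESeq2, 58 with limma-voom and 1 to 409 when 1 library was left out (409 without ZEB1 replicate 3). Of the members other than GALT 0 were called in all 13 alternatives that gave them an adjusted p, which DESeq2 did not. The ratio of control to ZEB1 counts of GALT was 50.6, and 7.87 (a lower bound against the floor, without ZEB1 replicate 3) to 59.4 on leaving out single libraries. It was 47.0 and 46.5 with TMM and RLE sizes, and 50.8 with the replicate number as a block. The log2 fold change turned sign for UGP2 with library size alone (-0.066) and for GALK2 with thinning (0.045). On leaving out single libraries it was -0.023 to 0.36 for GALK1, -0.73 to 0.12 for GALK2 and -0.052 to 0.21 for UGP2, and the cause was not tested. Libraries of the same replicate number did not deviate together (correlations -0.03, -0.01 and 0.01), so the numbers were not taken as pairs, and edgeR called 1 gene with the replicate block. A gene with no count in ZEB1 replicate 1 could still be at up to 2.65 CPM there, the level of 3 counts.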
